A study of Mus musculus with 4 samples.

Results

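Lone distal peaks are H3K27ac-marked regions of mouse heart that lie far from any annotated transcription start site (TSS) and have no acetylated neighbour. They were chosen by the deposited positions alone: a peak of the replicated list more than 2.5 kb from any GENCODE M21 TSS, with no other peak of that list within 25 kb on either side. Of 63061 peaks, 37273 were distal, and 2261 of these were lone, which is 3.59% of the list and 6.07% of its distal peaks. The remaining 35012 distal peaks, each with a neighbour within 25 kb, serve as the comparison below.

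The study profiled H3K27ac by chromatin immunoprecipitation and sequencing in heart tissue of female B6CASTF1/J mice aged 2 months, an F1 cross of C57BL/6J and CAST/EiJ. There were 4 libraries from 2 pools, pool H and pool G, with 2 technical replicates each, and each pool joined 2 heart samples. Both pools carry the same donor identifier, and how many animals it stands for is not stated, so a difference between the pools may be technical. There was no other genotype, treatment, age or tissue, and reads of the hybrid were placed on mm10, so the data hold no contrast between conditions and no test over samples was possible.

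Peaks were given as 4 lists: replicated peaks, pseudoreplicated peaks of both pools together, and pseudoreplicated peaks of pool H and of pool G alone. Each list gives a fold for every peak, the authors' ratio, read as enrichment over a control. It was used to describe and rank peaks within a list, and folds of different lists are set side by side without a test. The sources used here give no read numbers, so depth is unknown, and the 95% exact binomial intervals below cover counting of peaks or genes only. The tissue label was checked on promoter peaks, meaning a peak within 1 kb of a TSS. All 21 listed sarcomere and Z-disc genes, Myh6, Tnnt2 and Actc1 among them, had a promoter peak, against 1 of 15 hepatocyte genes and 5 of 18 skeletal muscle genes. Of the lists for other cells of the heart, 20 of 20 endothelial, 18 of 18 fibroblast, 12 of 15 mural, 4 of 16 macrophage and 5 of 15 lymphocyte genes had a promoter peak. The share over all coding genes was 56.8%.

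Acetylation of lysine 27 on histone H3 is laid down by the acetyltransferases p300 and CBP and marks active promoters and active enhancers. Enhancers are bound by transcription factors at a stretch of open DNA flanked by acetylated nucleosomes, and strong enhancers of cell identity genes often come in clusters. In heart, enhancers are known to carry sites for MEF2, GATA, TEAD, T-box and NKX2 factors. A peak that stands alone can be an enhancer, the promoter of an unannotated transcript, or another acetylated element, and the mark by itself does not tell these apart.

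The sequences below show the consensus sequences most frequent at lone summits relative to their flanks. For 5 consensus sequences, the lone peak of highest fold with a match within 100 bp of its summit and no exon there is printed as the 200 bp around the summit on the plus strand of mm10 (GRCm38), with the match in capitals. SP stands for GGGCGG, bound by SP and KLF factors, and ETS for CCGGAAG. MEF2 stands for CTAAAAATA. The BACH/MAF consensus, of leucine zipper factors, contains the AP-1 letters TGANTCA, and the glucocorticoid response element is a paired site of steroid receptors. Matches were counted on both strands.
SP, intergenic, nearest coding gene Chd7, chr4:8647307-8647506: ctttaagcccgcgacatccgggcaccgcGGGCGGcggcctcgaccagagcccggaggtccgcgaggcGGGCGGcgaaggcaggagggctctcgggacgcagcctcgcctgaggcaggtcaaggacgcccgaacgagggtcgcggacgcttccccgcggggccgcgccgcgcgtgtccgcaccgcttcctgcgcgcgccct
ETS, intron of Gm16675, chr8:46687027-46687226: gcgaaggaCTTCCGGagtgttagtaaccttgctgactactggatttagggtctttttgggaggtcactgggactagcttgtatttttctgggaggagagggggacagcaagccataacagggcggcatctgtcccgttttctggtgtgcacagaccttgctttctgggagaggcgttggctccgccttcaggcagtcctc
BACH/MAF, intron of Myo10, chr15:25726797-25726996: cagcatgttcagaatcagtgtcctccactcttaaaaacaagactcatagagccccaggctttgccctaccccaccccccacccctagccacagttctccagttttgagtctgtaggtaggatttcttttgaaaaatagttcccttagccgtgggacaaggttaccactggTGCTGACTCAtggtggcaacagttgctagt
glucocorticoid response element, intergenic, nearest coding gene Pfn2, chr3:57951017-57951216: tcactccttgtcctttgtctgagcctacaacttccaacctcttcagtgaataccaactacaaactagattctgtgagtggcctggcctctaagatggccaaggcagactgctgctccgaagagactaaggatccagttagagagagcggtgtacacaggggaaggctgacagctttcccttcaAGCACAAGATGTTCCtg
MEF2, intergenic, nearest coding gene Dhx15, chr5:51985430-51985629: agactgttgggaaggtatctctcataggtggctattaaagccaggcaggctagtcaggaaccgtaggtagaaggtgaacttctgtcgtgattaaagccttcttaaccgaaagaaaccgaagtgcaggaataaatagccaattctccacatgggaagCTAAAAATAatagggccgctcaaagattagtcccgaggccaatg

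No lone peak held the CTCF consensus within 100 bp of its summit, so for CTCF, the factor that anchors chromatin loops, and for further MEF2 sites, the match is printed with 10 bp on either side. These are the lone peaks of highest fold with a match within 250 bp of the summit. That distance is fixed, so a match can lie outside the called peak. The CTCF sites near Pdk3 and in Pde4d lie outside it, and the match near Fut8 runs over the peak end.
CTCF, intergenic, nearest coding gene Pdk3, chrX:93889943-93889974: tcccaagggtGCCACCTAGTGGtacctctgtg
CTCF, intron of Wdr93, chr7:79780698-79780729: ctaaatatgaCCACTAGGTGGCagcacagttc
CTCF, intergenic, nearest coding gene Fut8, chr12:77597450-77597481: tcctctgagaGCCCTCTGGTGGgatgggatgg
CTCF, intron of Pde4d, chr13:109776274-109776305: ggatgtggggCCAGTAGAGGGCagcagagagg
MEF2, intron of Gsg1l, chr7:125933581-125933609: aagaatgagcTATTTTTAGcctctctgtg
MEF2, intron of AC169509.1, chr16:24348195-24348223: tctccaagccTATTTTTAGccagctgtga
MEF2, intergenic, nearest coding gene AI593442, chr9:52835992-52836020: ctagactagtCTAAAAATAacaagagata
MEF2, intergenic, nearest coding gene Utrn, chr10:12019355-12019383: ttcagattttCTAAAAATAaaacagccaa
MEF2, intergenic, nearest coding gene Prr30, chr14:100750338-100750366: caatttggagCTAAAAATAgcgccttgcc

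The first window belongs to the lone peak of highest fold, near Chd7, and holds 35 CG dinucleotides in 200 bp and a GC content of 77%. The first CTCF site lies 185 bp from the summit of an X-linked peak near Pdk3 with fold 8.42, and the first MEF2 site lies 104 bp from the summit of a peak in an intron of Gsg1l with fold 15.6. The printed MEF2 site near Utrn belongs to a peak of fold 10.2, with 9.07 in pool H and 11.7 in pool G, whose nearest other peak was 333 kb away.

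The lone peaks spanned a wide range of isolation. The distance to the nearest other peak had a median of 47.1 kb, with quartiles at 33.4 and 88.8 kb, and reached 3.64 Mb on chromosome X. In all, 1180 members (52.2%) had their nearest neighbour 25 to 50 kb away, 580 at 50 to 100 kb, 438 at 100 to 500 kb and 63 (2.79%) beyond 500 kb. The limit cut through a continuous slope: the 166 members at 25 to 27 kb had a median fold of 3.73, and the 201 distal peaks at 23 to 25 kb, just outside, one of 3.87. The 5 members nearest the limit lay at 25.013 to 25.046 kb with folds of 2.06 to 5.35, and the 5 nearest outside lay at 24.946 to 25 kb with folds of 2.75 to 3.91.

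**Figure D1:**
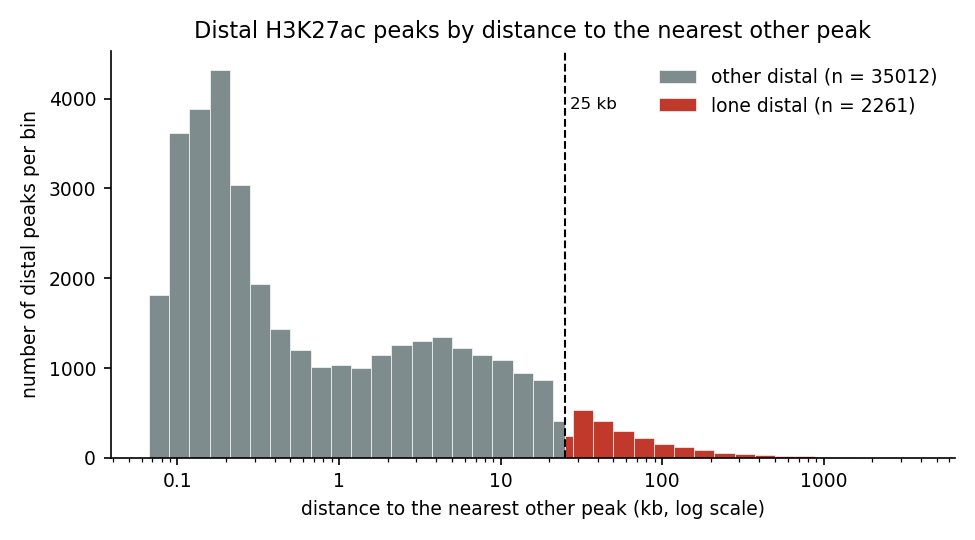
Number of distal peaks (y axis) by distance to the nearest other peak of the replicated list (x axis, kb, log scale). Bins have equal log width, except the bin divided at the dashed 25 kb limit. The 2261 lone peaks form the right-hand tail of the distribution, and the other 35012 distal peaks lie left of the limit, with the highest bins under 1 kb.

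Lone peaks had a lower median fold and a smaller median width than distal peaks with neighbours. The deposited fold had a median of 3.64 (quartiles 3.03 and 4.83) against 3.91 (3.12 and 5.66), and the width a median of 451 bp (293 and 836) against 587 bp. Fold and width belong to the list that chose the members, so these values are a description. In 76 members (3.36%) the authors' q was above 0.05, against 2.72% of the other distal peaks. A fold of at least 5 was reached by 525 members (23.2%), against 31.8% of the other distal peaks. A fold of at least 10 was reached by 93 (4.11%), against 6.66%. In bulk tissue, a region acetylated in few cells and one weakly acetylated in many cannot be told apart.

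Of the 2261 lone peaks, 1291 (57.1%, 95% interval 55.0 to 59.2) overlapped a peak of both single-pool lists, while 73% of all peaks and 66.8% (66.3 to 67.3) of the other distal peaks did. A further 508 were in the pool G list only and 166 in the pool H list only, and 296 (13.1%) were in neither, against 7.27% of the other distal peaks. The pool lists come from the same reads as the replicated list, so this overlap is not independent of the rule. The share followed the fold closely. Under a fold of 3 it was 16.4% of 538 members, at 3 to 4 it was 45% of 840, at 4 to 5 it was 84.4% of 358, and at 5 to 10 it was 99.5% of 432. All 93 members with a fold of 10 or more were in both. Within the same fold class, the share of the other distal peaks was higher at folds under 3 (23%) and at 3 to 4 (53.0%), where the intervals did not overlap. From a fold of 4 upward the intervals overlapped.

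The pools ranked the 1291 shared members in a similar order. Across these peaks the folds of pool H and pool G had a Pearson correlation of 0.900 and a Spearman correlation of 0.735, given as a description, since both pools entered the choice of peaks. The median fold was 4.10 in pool H and 5.64 in pool G, and pool G was higher in 1144 of 1291 peaks. The pool G list was also larger and its peaks wider in general, with 61333 peaks of median width 930 bp against 55831 of 664 bp for pool H, and the part this has in the fold of lone peaks was not tested.

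**Figure D2:**
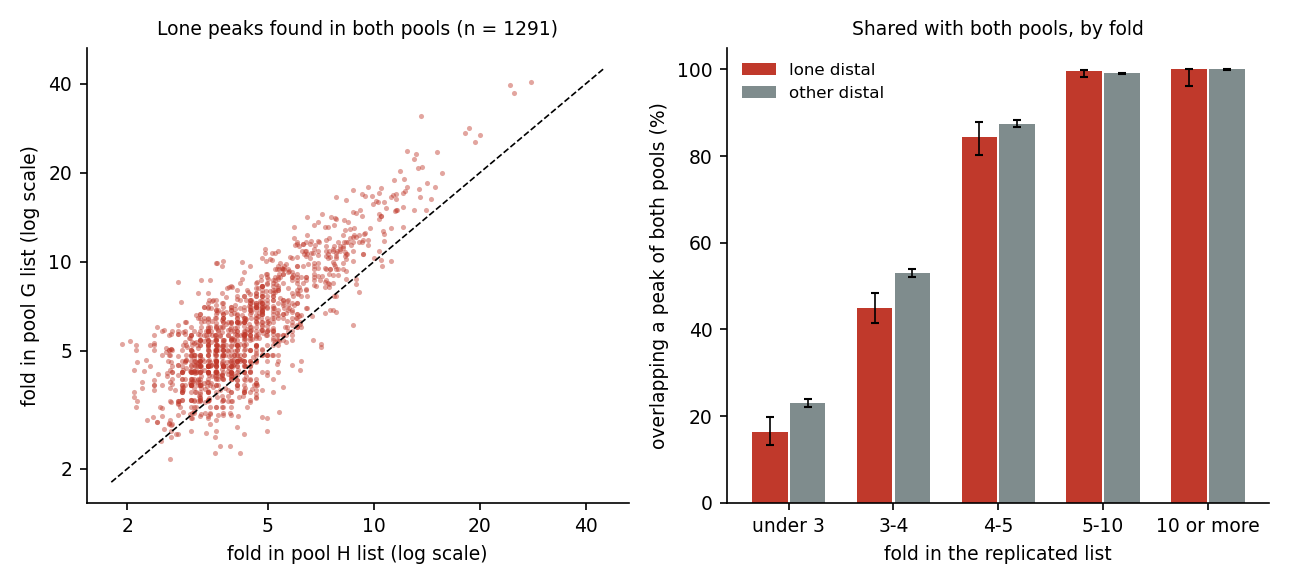
Left, the authors' fold of each of the 1291 lone peaks found in both pools, pool H on the x axis and pool G on the y axis (both log scales), with the line of equal fold dashed; 1144 points have the higher fold in pool G. Right, the share of lone (red) and other distal (grey) peaks that overlap a peak of both pools, by fold in the replicated list, with 95% exact binomial intervals; the share of lone peaks climbs from 16.4% under a fold of 3 to 100% at 10 or more.

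Isolation depended partly on the list. Of the 2261 members, 2185 had no other peak within 25 kb in the pool H list, 1671 in the pool G list and 1937 in the list of both pools together. In all 4 lists at once 1557 members (68.9%) had no other peak within 25 kb. These counts do not require that a list called the member itself: 1457 members overlapped a peak of the pool H list and 1799 one of the pool G list.

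By genome placement, lone summits were intergenic or intronic in similar numbers. They were intergenic in 1076 cases (47.6%, 45.5 to 49.7), intronic in 1118 (49.4%, 47.4 to 51.5) and exonic in 67 (2.96%). Of the other distal summits 32.8% were intergenic, 63.1% intronic and 4.16% exonic. A coding gene contained 45.4% of lone summits against 62.0%, and a long intergenic noncoding RNA gene 5.04% (4.18 to 6.03) against 3.26% (3.08 to 3.45). For 688 members (30.4%, 28.5 to 32.4) no coding TSS lay within 100 kb, against 11.7% of the other distal peaks. The nearest coding TSS was a median of 51.8 kb away, against 19.1 kb. The rule removed peaks beside acetylated promoters, so part of this gap from genes is built in.

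Lone peaks were found on every autosome and on X. On the autosomes they made up 4.09% (chromosome 19) to 8.06% (chromosome 13) of the distal peaks, and 0.718 to 1.28 per Mb. On chromosome X 70 of 578 distal peaks were lone (12.1%, 9.56 to 15.1), which was 0.409 per Mb. X therefore held fewer lone peaks per Mb than any autosome, and a larger share of its few distal peaks was lone. The 70 X-linked members had a median fold of 3.84 and 67.1% were in both pools, against 57.1% of all members.

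The nearest coding gene of a lone peak had an acetylated promoter in most cases. It had a promoter peak for 1521 members (67.3%, 65.3 to 69.2), against 56.8% of all coding genes and 89.2% of the other distal peaks. A TSS closer than about 24 kb cannot itself hold a peak under the rule, so the comparison was repeated where the nearest coding TSS lay beyond 26 kb, a split chosen after the data were seen. There it was 1180 of 1634 members (72.2%, 70.0 to 74.4) against 85.0% (84.4 to 85.6). At 26 to 50 kb the shares were 73.8% and 88.8%, at 50 to 100 kb 71.4% and 83.6%, and at 100 to 500 kb 73.0% and 81.4%; beyond 500 kb, with 77 members, the intervals overlapped. The nearest coding TSS with a peak was a median of 107 kb from a lone peak and 28.9 kb from the others.

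**Figure D3:**
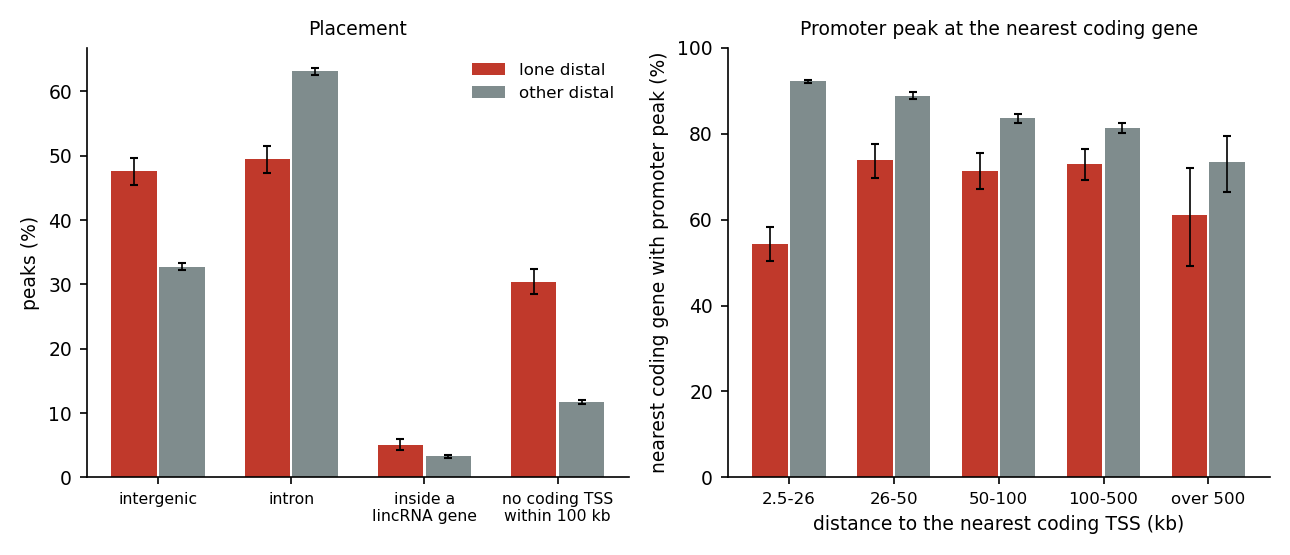
Left, the share of lone (red) and other distal (grey) peaks that are intergenic, intronic, inside a lincRNA gene or without a coding TSS within 100 kb. Right, the share whose nearest coding gene has a promoter peak, by distance to that TSS in kb; bars carry 95% exact binomial intervals, and beyond 26 kb the shares are 61.0 to 73.8% for lone peaks and 73.4 to 88.8% for the others.

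Some lone peaks lay at start sites that GENCODE M21 does not hold. A RefSeq TSS was within 1 kb of 74 members (3.27%, 2.58 to 4.09), 45 of them of predicted noncoding and 16 of predicted coding transcripts, against 4.40% of the other distal peaks. The share was larger at high fold, 35 of 525 (6.67%) at a fold of at least 5 and 13 of 93 (14%, 7.66 to 22.7) at 10 or more, where 9.56% of the other distal peaks had such a TSS. CpG-dense summits, with GC above 50% and an observed to expected CpG ratio above 0.6 over 500 bp, are typical of promoters. There were 38 (1.68%, 1.19 to 2.30) among lone peaks and 0.940% (0.841 to 1.05) among the others. Of the 8 lone peaks with a fold of at least 20, 4 were CpG-dense (15.7 to 84.3%), an interval that covers the 23.7% of the other distal peaks of that fold. Transfer RNA genes lay within 1 kb of 4 members (0.177%), against 0.220% of the other distal peaks.

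The lone peak of highest fold was at chr4:8645965-8648924, 2960 bp wide, with a fold of 34.9 in the replicated list, 27.9 in pool H and 40.3 in pool G. It covered the RefSeq start of the noncoding gene Gm8273, and the nearest coding TSS, 41.5 kb away, was that of Chd7, a chromatin remodeller required for heart and neural crest development. The next was in an intron of the noncoding gene Gm16675 at chr8:46686687-46687495, with folds of 31.4, 24.3 and 39.7 in the same order. Its nearest coding gene was Irf2, an interferon regulatory factor, and its summit window is the ETS sequence above. The third, near the sperm flagellum gene Spag6 on chromosome 2, had folds of 29.6, 25.1 and 37.1, and its 500 bp held 65.6% GC. In all 3 the replicated fold lay between the values of the pools, with pool G the higher.

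Peaks at rank 4 to 9 had folds of 20.0 to 24.4. They lay near Pum2 (an RNA-binding repressor of translation), Arid1b (a subunit of the SWI/SNF remodeller), Dcn (decorin, a matrix proteoglycan of fibroblasts), Pom121l2, Zic4 and BC005561. The peak near Arid1b, at chr17:4906683-4908949, covered the RefSeq start of Gm34507 and the one near BC005561, at chr5:104570796-104572237, that of Zfp33b, a zinc finger gene. The peak nearest Pom121l2 was within 1 kb of a transfer RNA gene. The peak near Dcn, 165 kb from its TSS at chr10:97312657-97314370, had the widest gap between pools of the 9, with folds of 13.6 in pool H and 31.1 in pool G. The peak nearest Zic4, at chr9:91100900-91102776, had folds of 21.7, 19.4 and 25.4. It stood 552 kb from any other peak and held 1 CG dinucleotide in 500 bp, against 67 at the peak of highest fold.

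**Figure D4:**
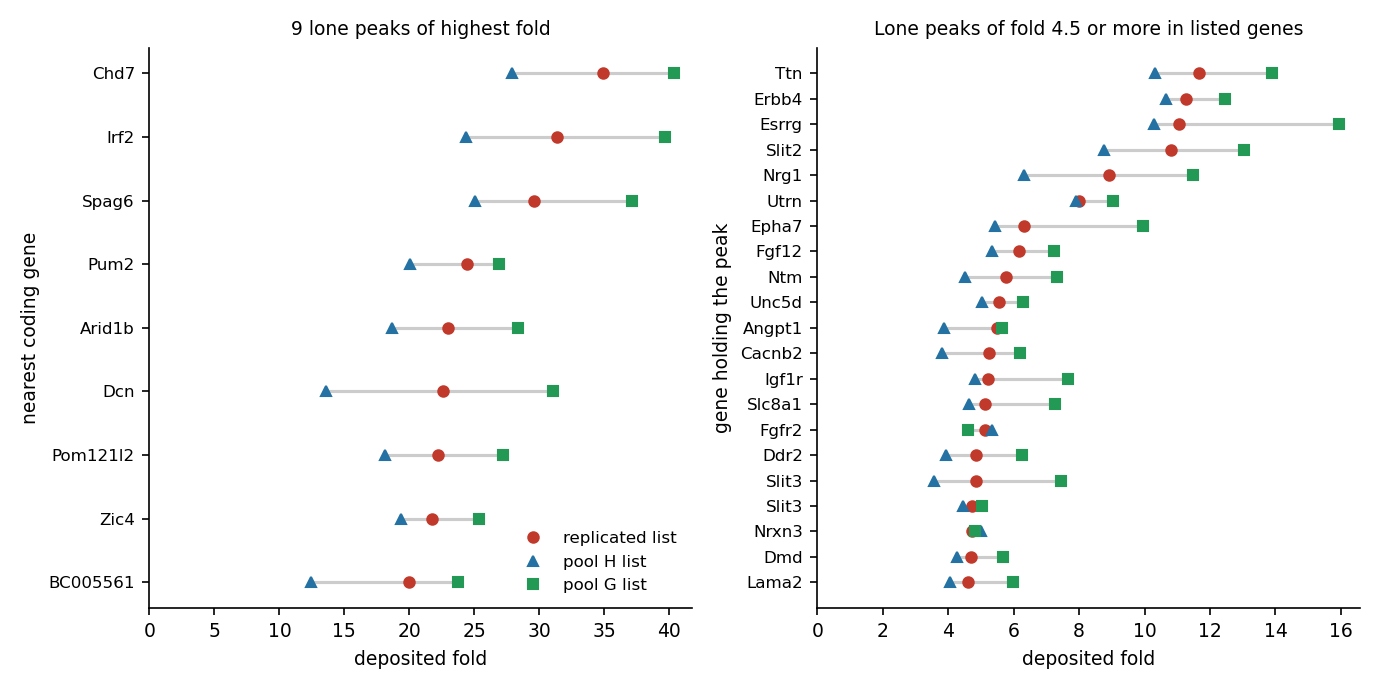
The authors' fold (x axis) in the replicated list (circles), pool H list (triangles) and pool G list (squares). Left, the 9 lone peaks of highest fold, labelled by nearest coding gene; right, the lone peaks of fold 4.5 or more named from the gene lists, labelled by the gene that holds them. In all 9 on the left the replicated value lies between the pools, with pool G the higher.

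The widest lone peaks were broad isolated blocks. At 4220 bp the widest, at chr19:27174906-27179125, lay in an intron of the noncoding gene AC118724.1, 37.4 kb from Vldlr, the very low density lipoprotein receptor, with folds of 13, 9.43 and 16.7. The next, 4189 bp near Lnx1, had folds of 12.9, 11.5 and 14.8. An intron of Mecom, a zinc finger transcription factor gene, held 3868 bp, and an intron of Ppfibp2, a liprin, held 3655 bp with a fold of 18.9 over a RefSeq start predicted for Ppfibp2 itself.

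The most isolated members had folds near the median of all lone peaks or below it. The 63 beyond 500 kb had a median fold of 3.41, against 3.64, and 55.6% were in both pools, against 57.1%. Strong peaks were among them, such as the one nearest Zic4 with a fold of 21.7. The 5 farthest from any other peak, 1.75 to 3.64 Mb, had folds of 2.93 to 3.71 and widths of 235 to 844 bp. Of these, 3 were on X, near Tgif2lx2, near Prr32 and in an exon of Slitrk4, a neuronal adhesion gene, and the first 2 were called in pool G only. The one near Tgif2lx2 lay in sequence that is 98.2% repeat. The other two, on chromosome 16 near Ncam2 and on chromosome 4 near 1700009N14Rik, were in both pools, with folds of 3.03 and 3.93, and of 3.83 and 5.03, in pool H and pool G.

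Lone peaks inside genes lay mostly in long genes. In all, 832 of 21938 coding genes (3.79%) held at least 1 lone peak: 683 held 1, 113 held 2 and 36 held 3 or more. The median length of these genes was 175 kb, against 17.4 kb for all coding genes. The share of genes with a lone peak grew from 0.677% at 10 to 50 kb to 16.0% at 100 to 200 kb, 32.6% at 200 to 400 kb and 46.3% of the 354 genes above 400 kb. Gene length therefore moves with every gene count below, and its part in them was not tested. Of the 832 genes 589 (70.8%) had a promoter peak. Among genes above 400 kb, 107 of 164 holding a lone peak had one (65.2%, 57.4 to 72.5), against 65 of 190 without a lone peak (34.2%, 27.5 to 41.4). At 200 to 400 kb the shares were 77.6% (71.4 to 83.1) and 65.2% (60.5 to 69.7), whose intervals did not overlap. They were 78.2% (72.5 to 83.3) and 71.9% (69.3 to 74.3) at 100 to 200 kb. Up to 100 kb they were 60.3% (53.5 to 66.8) and 55.3% (54.6 to 56.0). In these 2 shorter classes the intervals overlapped.

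The genes with most lone peaks were Gm20388 with 6, in a gene model of 4.43 Mb that spans many other genes and 293 peaks, and Prkg1, the cGMP-dependent protein kinase of smooth muscle relaxation, with 5 of its 16 peaks lone. The 5 peaks of Prkg1 had low folds, 2.75 to 4.17, and 3 were in both pools. Prkca (protein kinase C alpha), Sox6 (a transcription factor), Nav2 and Ctnna3 (alpha-T-catenin, a protein of the cardiac intercalated disc) held 4 each. In Prkca the strongest reached 7.90, with 6.93 in pool H and 8.93 in pool G, and the other 3 were each absent from a pool list. The 4 in Sox6 had folds of 2.58 to 3.32 and none was in both pools. In Ctnna3 the strongest had 5.30, with 4.80 and 5.89 in the pools. Sergef, Ppm1l, Srgap1 and Sntb1 held 3 each. The 3 in Srgap1, a GTPase-activating protein downstream of Slit and Robo, were alike, with folds of 3.99, 4.64 and 4.55, and all were in both pools. All of these genes had a promoter peak.

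Among the lists of cardiomyocyte genes, the dystrophin complex and costamere list, which links the cytoskeleton to the matrix, had 7 of 17 genes with a lone peak in the body, against 3.79% of all coding genes. Its 17 genes all had a promoter peak and a median length of 209 kb. Of all coding genes of 200 to 400 kb 32.6% held a lone peak. Utrn, encoding the dystrophin relative utrophin, held one of 8.01 (7.91 in pool H, 9.05 in pool G), Dmd, encoding dystrophin, one of 4.69 (4.25 and 5.69), and Lama2, a laminin chain, one of 4.6 (4.05 and 5.98). Each of these 3 peaks was in both pools and lay 35.6 to 70.1 kb from the nearest coding TSS. The same genes held weaker lone peaks. Utrn had one of 3.99 in pool G only, and Dmd one of 2.05 in neither pool, with q above 0.05. Lama2 had one of 2.92 in both pools and one of 2.66 in pool G only.

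The calcium handling and electrical activity list had a median gene length of 285 kb, and 32.6% of all coding genes of 200 to 400 kb held a lone peak. Of its 20 genes 6 (30%) held a lone peak, which is near that share. Those of highest fold were in Fgf12, a modulator of sodium channels, at 6.15 (5.34 in pool H, 7.24 in pool G), in Cacnb2, the beta subunit of the L-type calcium channel, at 5.24 (3.80 and 6.18), in Slc8a1, the sodium-calcium exchanger, at 5.13 (4.63 and 7.28), and in the potassium channel gene Kcnq1 at 3.85 (3.79 and 3.75). Fgf12 had no promoter peak, and its lone peak was 296 kb from any other peak. Of the 22 cardiac transcription factor genes, with a median length of 140 kb, 5 (22.7%) held a lone peak. The share was 16.0% of all coding genes of 100 to 200 kb. Esrrg, a nuclear receptor of oxidative metabolism, held 3, at 11.1 (10.3 and 16.0), 3.7 and 3.42. Those in Meis2 (3.36) and Zfpm2 (3.09), the latter encoding a cofactor of GATA factors, were each absent from at least 1 pool list.

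Of the 21 sarcomere and Z-disc genes 4 held a lone peak, among them Ttn, Fhod3 and Cap2, against 3.79% of all coding genes. The median length of the list was 34.1 kb, and 0.677% of all coding genes of 10 to 50 kb held a lone peak. The 4 genes were not matched for length. The lone peak in Ttn, encoding the giant elastic protein titin, had a summit in an exon, a fold of 11.7 (10.3 in pool H, 13.9 in pool G) and a width of 3127 bp. It lay 17.9 kb from the nearest annotated Ttn TSS and 80.9 kb from the nearest Ttn TSS with a peak. Fhod3, a formin of sarcomere assembly, held one of 4.35 (4.27 and 7.65). The one in Cap2 had a fold of 3.03 (3.10 and 3.62). The fatty acid and energy metabolism list, with a median gene length of 28.2 kb, had 0 of 20.

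Most of the listed genes known from neurons had no promoter peak, whether or not they held a lone peak. Of 20 neuronal adhesion and synapse genes, 12 held a lone peak, while 3 of the 20 had a promoter peak, and 9 of the 12 had none, among them Nrxn3, Lsamp, Opcml, Cntn5, Cntnap2, Lrrc4c and Kirrel3. The median length of the 20 genes was 1119 kb, the longest of the 15 lists. Of all coding genes above 400 kb 46.3% held a lone peak. A promoter peak was present at 56.8% of all coding genes. Above 400 kb it was present at 65.2% of genes holding a lone peak and 34.2% of those without one. The strongest was in Erbb4, a neuregulin receptor that is also expressed by cardiomyocytes, with a fold of 11.3 (10.7 in pool H, 12.5 in pool G) and 111 kb from any other peak. Ntm, a neuronal adhesion protein, held one of 5.76 (4.52 and 7.31), and Nrxn3, a presynaptic adhesion protein, one of 4.74 (4.99 and 4.83) and a weaker one of 3.06 (2.20 and 3.75). The 3 genes with a promoter peak, Erbb4 and Ntm among them, all held a lone peak. The presence of an H3K27ac peak in an intron is not a measure of expression of the host gene.

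Axon guidance genes, many of which also pattern vessels and the heart, held lone peaks in 10 of 20. Their median length was 367 kb, and 32.6% of all coding genes of 200 to 400 kb held a lone peak. Slit2, a secreted ligand of Robo receptors, held one of 10.8 (8.78 in pool H, 13.04 in pool G), Epha7, an ephrin receptor, one of 6.30 (5.43 and 9.94), Unc5d, a netrin receptor, one of 5.56 (5.02 and 6.29), and Slit3 one of 4.83 (3.57 and 7.45) and 2 weaker ones. Of the 10, Sema3a, Slit3, Unc5d and Epha3 had no promoter peak. Among all coding genes of 200 to 400 kb holding a lone peak, 77.6% had one. In the matrix and growth factor list, with a median gene length of 166 kb, 9 of 20 held one, against 16.0% of all coding genes of 100 to 200 kb. The ligand gene Nrg1, which encodes neuregulin, the ligand of Erbb4, had a lone peak of 8.91 (6.32 and 11.5), 771 kb from any other peak, and no promoter peak. Angpt1, the ligand of the Tie2 receptor of vessels, held one of 5.49 (3.86 and 5.65), and Igf1r, the receptor of insulin-like growth factor, one of 5.21 (4.81 and 7.65). The gene model of Fgfr2 held one of 5.11 (5.34 and 4.6). That peak covered the RefSeq start of the noncoding gene Gm34283, and its nearest coding TSS was that of Tacc2, 7.66 kb away. Other lone peaks in the Fgfr2 model lay nearest to 5430419D17Rik and Cpxm2, so this gene model does not assign them to Fgfr2.

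For the lists of other cell types, the background is the share of all coding genes with a lone peak in the body, 3.79% in all and 0.677% at gene lengths of 10 to 50 kb. In the fibroblast list 1 of 18 genes had a lone peak in the body, Ddr2, a collagen receptor, at 4.83 (3.92 in pool H, 6.24 in pool G), and in the lymphocyte list 1 of 15, Ikzf3, at 3.41, found in pool G but not in pool H. The endothelial, mural, macrophage, skeletal muscle and hepatocyte lists had 0 of 20, 15, 16, 18 and 15. Their median gene lengths were 10.02 to 52.2 kb.

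In GC content, lone summits lay between their flanks and the other distal summits. The 500 bp around lone summits had a median GC content of 45.2% (quartiles 41.4 and 49.2), against 42.8% in windows 5 kb to either side and 46.8% at the other distal summits. GC fell with isolation, from 46.0% at 25 to 50 kb to 39.6% beyond 500 kb. Repeats marked in the assembly covered a median of 9.4% of the lone summit windows, 11% of the other distal windows and 20.4% of the lone flanks. The observed to expected CpG ratio had medians of 0.213, 0.205 and 0.169 in the same order.

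Of the 24 consensus sequences counted, MEF2 was the one whose interval at lone summits lay above that of the other distal summits in the 500 bp window. MEF2 factors are MADS-box activators of muscle genes. The consensus was present within 250 bp of the summit in 95 lone peaks (4.20%, 3.41 to 5.11), against 2.75% of all distal summits, 2.66% (2.49 to 2.83) of the other distal peaks and 1.28% of the lone flanks. MEF2 letters are rich in A and T, and GC moves with the share. Within windows of up to 42% GC it was 6.56% (4.75 to 8.79) of lone and 4.68% (4.21 to 5.20) of other distal summits, at 42 to 48% 3.98% (2.80 to 5.46) and 2.83% (2.55 to 3.13), and above 48% 2.46% (1.47 to 3.86) and 1.54% (1.34 to 1.75). In each GC class the intervals overlapped, so the difference was not resolved within classes. Splitting by GC was chosen after the data were seen. The 95 peaks had a median fold of 4.17, against 3.6 for the remaining members, and 63 (66.3%) were in both pools, against 56.7%. With a window of 300 bp the shares were 1.02% (0.646 to 1.52) and 0.880% (0.785 to 0.983), whose intervals overlapped, and no consensus lay above the other distal summits. With a window of 1000 bp MEF2 was at 7.43% (6.38 to 8.59) against 5.27% (5.04 to 5.51), and the GATA letters (48.3%, 46.2 to 50.3, against 45.5%) and the NKX2 letters CACTTNA (48.3%, 46.2 to 50.3, against 45.1%) also lay above.

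The matches stood beside the summits rather than under them. In 100 bp steps from the summit, MEF2 was found in 0.708% of lone peaks within 100 bp, 2.21% at 100 to 200 bp, 2.43% at 200 to 300 bp, 1.55% at 300 to 400 bp and 0.354% at 500 to 600 bp. In the other distal peaks the same steps gave 0.408%, 1.40%, 1.8%, 1.11% and 0.6%. The CTCF consensus was absent within 100 bp of the 2261 lone summits, which allows a share of up to 0.163% (upper exact limit). It was present at 17 lone summits (0.752%) at 100 to 200 bp and at 17 at 200 to 300 bp. In the other distal peaks the same steps gave 0.0857%, 0.440% and 0.520%, and their share within 100 bp lies under that limit. Within 250 bp the CTCF consensus was found at 27 lone summits (1.19%, 0.788 to 1.73). It was found at 0.797% (0.706 to 0.896) of the other distal summits and in 0.265% of the lone flanks. The window is fixed, so some of these matches lie outside the called peak. The intervals at lone and other distal summits overlapped. Under the same rule in the pool H list alone, without replicate 2, the CTCF share was 0.735%, and in a window of 300 bp of the replicated list it was 0.0885%. Of the 27 members with a CTCF match 14 (51.9%) were in both pools, against 57.2% of the remaining members. The nearest coding gene had a promoter peak for 44.4%, against 67.5%. These shares of 27 members carry no interval.

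**Figure D5:**
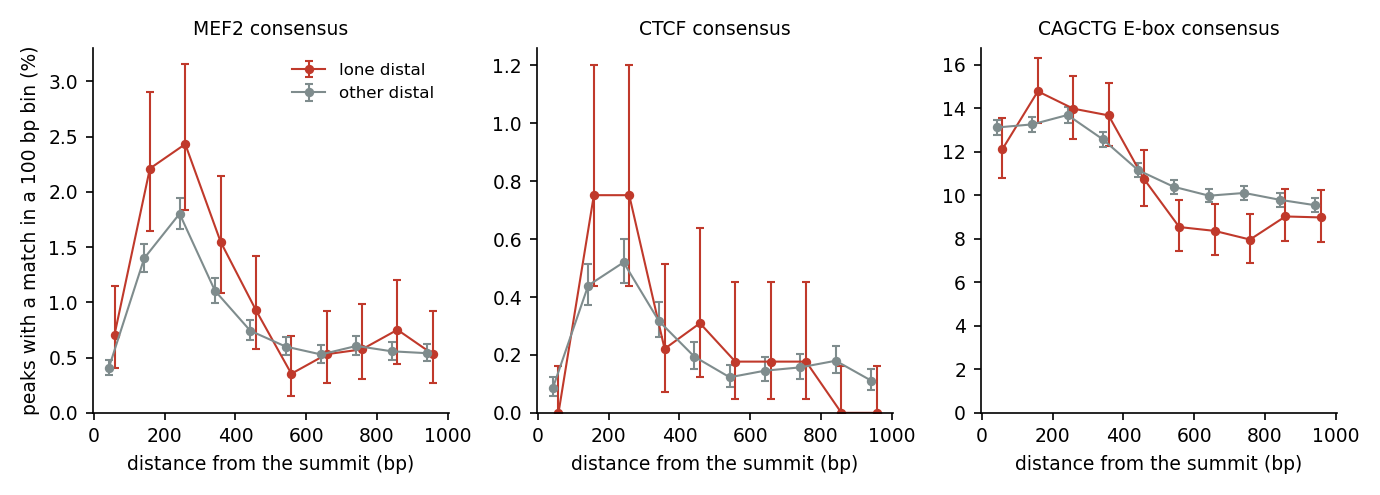
Share of lone (red) and other distal (grey) peaks with at least 1 match of the MEF2, CTCF or E-box consensus in each 100 bp step of distance from the summit (x axis, bp, both sides together), with 95% exact binomial intervals. For MEF2 and CTCF the lone peaks reach their highest values at 100 to 300 bp, 2.43% and 0.752%, and are lower in the step nearest the summit.

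For most other consensus sequences the intervals at lone and other distal summits overlapped, which does not show that the shares are equal. The E-box CAGCTG, a site of basic helix-loop-helix factors, was in 30.2% (28.3 to 32.1) of lone summits, 29.6% of the others and 18.6% of lone flanks. SP letters were in 9.64% (8.46 to 10.9), against 9.54% and 4.25%, and ETS in 2.79% (2.15 to 3.55), against 3.03% and 1.53%. GGAATG, bound by TEAD factors of the Hippo pathway, was in 28.4% (26.5 to 30.3), against 27.7% and 24.7%. AP-1 letters were in 17.9% (16.4 to 19.6), against 17.4% and 14.6%. The glucocorticoid response element was in 22 members (0.973%, 0.611 to 1.47), against 0.680% and 0.221%.

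The letters AGATAA, read by GATA factors, were in 27.2% (25.3 to 29.0) of lone summits and in 28.6% of their flanks. For 2 consensus sequences the interval lay below that of the other distal summits. The T-box letters AGGTGTG, read by factors such as TBX5, were in 6.63% (5.64 to 7.74), against 9.43% and, in the flanks, 11.2%. The KLF consensus was in 3.23% (2.54 to 4.04), against 4.72%. In a window of 300 bp the interval of T-box, and not that of KLF, lay below. A match is a description of the letters and does not show binding.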

How the data were processed

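H3K27ac was measured by ChIP-seq in 4 libraries of 2 heart pools. The authors deposited 4 peak lists on mm10, per the deposited text files, with technical replicates joined. Each list gives the authors' fold (a ratio), their −log10 p and −log10 q values, and the summit's distance from the peak start. Aligner, peak caller and their settings: not given in the sources used here. Gene models were GENCODE M21, further start sites came from RefSeq, and sequence from GRCm38, whose chromosome lengths hold all peak ends. Distances run between peak edges, and overlap means at least 1 bp. Python 3.11.15, pandas 2.3.3, numpy 2.4.6, scipy 1.17.1 and matplotlib 3.10.9 were used, and interval and distance code was tested on simulated data. Shares carry 95% exact binomial intervals; no test was run, since 1 group of 2 pools exists and the rule used the list itself. The members, the 15 gene lists and the 24 consensus sequences were chosen with earlier results of these data known. Named were the 10 lone peaks of highest fold, the 5 widest, the 5 most isolated, the 10 coding genes holding most, and up to 4 genes per list by fold. Sequences came from the lone peak of highest fold per consensus; the short CTCF and MEF2 sites were added after values were seen. Alternatives varied the distances, the list, the overlap and the window. Sequences were not printed from chromosome 18 or exons. Some genes that this rule picks are not reported here.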

Additional observations from a re-analysis of the deposited data

How the results depend on the processing

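No paired analysis was possible because no result comes from a test and the study holds 1 group of 2 pools. The neighbour distance sets how many peaks count as lone: 5136 at a neighbour distance of 10 kb and 1081 at 50 kb. At 10 kb 56.7% were inside a gene, the median GC was 46.1% and the nearest coding gene had a promoter peak for 77.3%; at 50 kb these were 47.7%, 44.4% and 57%. With a TSS distance of 5 kb, 51.1% were inside a gene and 68.0% had a promoter peak at the nearest coding gene. Counting neighbours in any of the 4 lists gave 66.1%, and a promoter limit of 2.5 kb gave 68.1%. The pseudoreplicated list of both pools gave a median GC of 45.4%, and a window of 1000 bp gave 44.5%. Applying the rule to the list of a single pool (without replicate 1 or 2) gave 2177 to 2532 lone peaks. Of these, 50.9 to 52.6% were inside a gene, and the nearest coding gene had a promoter peak for 68.0 to 68.5%. Their median fold was 3.74 to 4.43 and their median GC 45.2 to 45.4%. Of these peaks 53.2 to 84.2% overlapped a peak of the other pool's list. That is a different measure from the 57.1% of the main rule, which needs overlap with both pool lists. Under the other alternatives the share in both pools was 52.8 to 62.3%, against 57.1%. The CTCF share was 0.0885% in a window of 300 bp, 1.95% in 1000 bp, 1.67% at a neighbour distance of 50 kb and 0.735 to 1.15% in the list of a single pool, and the TEAD share 17.9% in 300 bp and 48.6% in 1000 bp. Leaving out peaks within 2.5 kb of a RefSeq TSS, an alternative added after the data were seen, left 2144 members with a median fold of 3.62. Unknown read depth limits what the weakest members can show: of the 538 with a fold under 3, 16.4% were in both pools.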
